A study of Homo sapiens with 2 samples.

Results

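The 35 genes described here encode the junctions that hold epithelial cells together. They were chosen by function, but with earlier results of these data known. They are 16 of the tight junction, 10 of the adherens junction, 7 of the desmosome and 2 of the gap junction. The arrays held 19775 genes with a probe set of their own. Expression was measured in DLD-1, a human colorectal carcinoma line, stably carrying wild-type p53 under a tet-off system, in which tetracycline keeps the transgene silent. The p53 off culture was kept with tetracycline, and the p53 on culture had been without it for 9 h, so the cultures also differed in the drug itself. Total RNA of each culture was hybridized to 1 Affymetrix array. With 1 array per condition there is no replicate error, so no test was made, and each ratio describes these 2 arrays. The labels do not say whether the transfected line is a single clone.

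Epithelial sheets are sealed and joined by stacked contacts along the lateral membrane. At the tight junction, claudins form the seal and set which ions pass, occludin and its MARVEL-domain relatives shape the strands, and ZO proteins tie them to actin. Below it, cadherins and nectins of the adherens junction bind neighbouring cells and hold catenins inside. Desmosomes anchor keratin filaments through desmosomal cadherins, plakoglobin and plakophilins, while connexins of gap junctions pass small molecules from cell to cell. In the intestine these contacts form the barrier of the mucosa.

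Of the 35 genes, 28 were measured, meaning that at least 1 array read at or above a floor of 112, the median of all signals that were not controls. In each of the 28 both arrays read above that floor on the probe set used, so none was included through its brighter array alone. CLDN23, CGNL1, NECTIN4, DSC3 and GJA1 were under the floor on both arrays. CTNND1, the gene of p120-catenin, had probe sets only in common with the read-through gene TMX2-CTNND1, and no probe set was annotated to F11R, the gene of the adhesion molecule JAM-A, alone. Neither was analysed here. Each gene is given by its brightest probe set on average over both arrays, and the remaining ones serve as a check.

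With p53 on, 4 of the 28 genes were higher and 6 were lower by 2-fold or more, and all but PKP3 and GJB2 belong to the tight junction. Higher were CLDN4, TJP1, MARVELD2 and MARVELD3, and lower were OCLN, CLDN15, CLDN2, TJP3, PKP3 and GJB2. The shares, 14.3% higher and 21.4% lower, stand beside 15.3% and 13.5% of all 13915 measured genes. Among the 10737 genes with both signals at or above the floor, the shares were 14.7% and 15.6%. The median log2 ratio of the 28 genes was -0.13, against 0.0035 for all measured genes and -0.10 for those above the floor on both arrays. The share past 2-fold in either direction was 35.7%, against 28.8% of all measured genes and 30.3% of those above the floor on both arrays. At 1.5-fold the counts were 5 higher and 8 lower, beside 25.9% of all measured genes in each direction. These are 17.9% and 28.6% of the 28. The share of higher genes was thus near that of the whole array at 2-fold and below it at 1.5-fold. For lower genes the share was above it at 2-fold and near it at 1.5-fold. Over 28 genes such differences amount to a few genes, and they were not tested.

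The ratios covered a different range in each junction class. In the tight junction 8 of 13 measured genes (61.5%) were past 2-fold, beside 28.8% of all measured genes. Of the 8, 4 were higher and 4 lower, and the 13 log2 ratios ran from -2.63 to 1.32. None of the 8 adherens junction genes passed 2-fold, where the ratios ran from -0.78 to 0.81. A single one did when the arrays were scaled to spike-ins (CTNNA1) or no floor was set (NECTIN4). In the desmosome 1 of 6 did, and the single measured connexin of the list also did. The SD over genes was 1.24 in the tight junction and 0.46 in the adherens junction, beside 1.06 over all measured genes. The order was the reverse among the other genes of these junctions, described below. Past 2-fold were 3 of 21 other tight junction genes (14.3%) and 9 of 20 other adherens junction genes (45%), with SDs of 0.89 and 1.44. Whether these classes differ from each other was not tested.

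**Figure D1:**
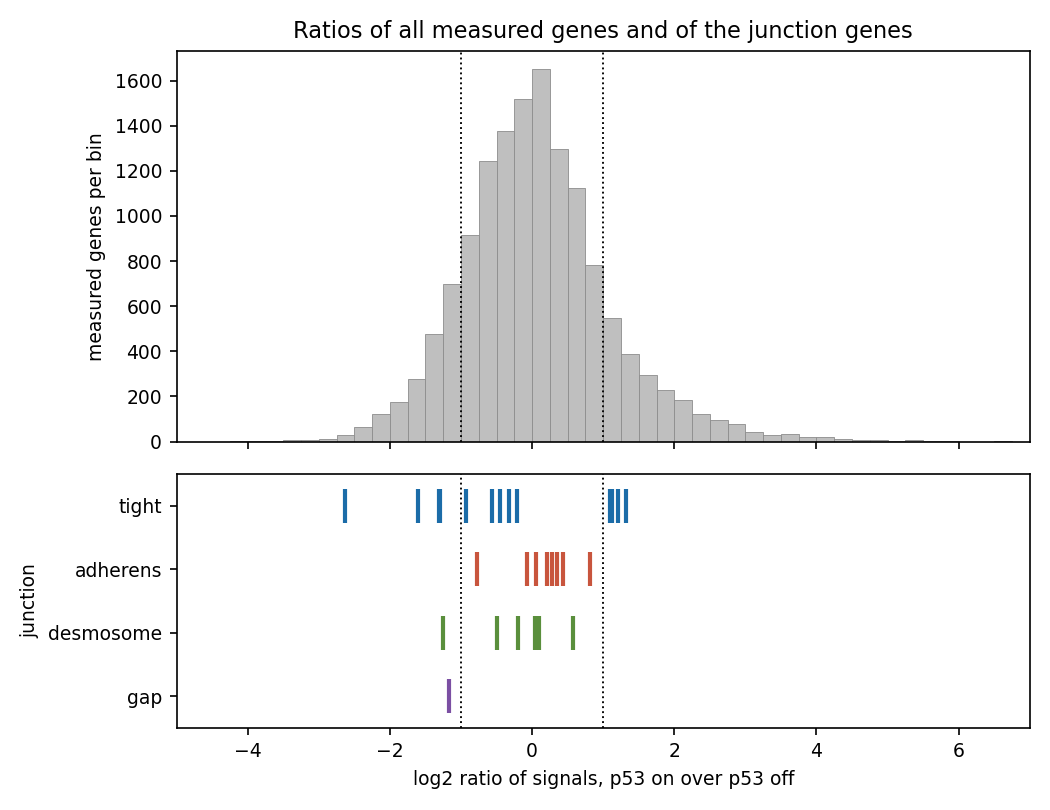
The upper panel counts all 13915 measured genes by log2 ratio of p53 on over p53 off in bins of 0.25, and each tick in the lower panel is 1 measured junction gene. Dotted lines mark 2-fold. The 8 adherens junction genes all lie inside the lines, while 8 of 13 tight junction genes lie outside them, 4 on each side.

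Members of the same families differed in direction. MARVELD2 and OCLN, which encode proteins of 1 family, lie next to each other on chromosome 5 with no other protein-coding gene between them, and their ratios differed 15.6-fold. TJP1 and TJP3, 2 ZO scaffold genes, differed 5.25-fold in their ratios. The 250 bases before the most upstream start of these 4 genes are shown because each pair was divided in direction. They are taken from RefSeq's table of build GRCh38.p14 and run 5′ to 3′ on the gene's strand. Capitals mark every match, on either strand, to 1 of 5 short motifs: the p53 half-site, the E-box CAGGTG, the cell cycle element TTTGAA, the GC box GGGCGG and the Grainyhead motif AACCNGTT. The windows are chr5:69492297-69492546 (+) for OCLN, chr5:69414866-69415115 (+) for MARVELD2, chr15:29969050-29969299 (-) for TJP1 and chr19:3708134-3708383 (+) for TJP3.
OCLN: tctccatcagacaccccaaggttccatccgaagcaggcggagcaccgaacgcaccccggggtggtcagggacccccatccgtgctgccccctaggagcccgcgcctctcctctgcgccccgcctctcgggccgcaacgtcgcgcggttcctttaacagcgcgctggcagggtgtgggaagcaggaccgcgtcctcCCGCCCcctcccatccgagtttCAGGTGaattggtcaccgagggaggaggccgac
MARVELD2: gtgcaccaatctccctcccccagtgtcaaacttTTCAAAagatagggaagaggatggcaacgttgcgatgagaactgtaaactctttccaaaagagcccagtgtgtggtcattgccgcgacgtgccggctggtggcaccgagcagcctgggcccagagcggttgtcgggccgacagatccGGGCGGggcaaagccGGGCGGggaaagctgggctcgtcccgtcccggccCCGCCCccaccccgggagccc
TJP1: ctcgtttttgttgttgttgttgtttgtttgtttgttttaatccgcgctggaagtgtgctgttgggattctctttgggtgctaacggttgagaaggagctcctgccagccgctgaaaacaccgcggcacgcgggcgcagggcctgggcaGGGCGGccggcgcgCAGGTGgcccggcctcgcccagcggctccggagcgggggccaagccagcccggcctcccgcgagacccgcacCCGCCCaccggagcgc
TJP3: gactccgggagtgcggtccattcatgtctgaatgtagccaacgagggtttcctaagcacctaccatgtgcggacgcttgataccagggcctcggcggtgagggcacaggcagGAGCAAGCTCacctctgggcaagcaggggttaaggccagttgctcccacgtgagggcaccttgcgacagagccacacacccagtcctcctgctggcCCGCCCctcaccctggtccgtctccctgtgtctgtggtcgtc

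The OCLN window held an E-box from 33 to 28 bases before the start and a GC box from 55 to 50, and none of the other 3 motifs. The MARVELD2 window, of a gene with the opposite ratio, held the cell cycle element from 217 to 212 bases before the start and 3 GC boxes, with no E-box. In TJP1 the window shown held an E-box from 88 to 83 and 2 GC boxes. In TJP3 it held a p53 half-site, GAGCAAGCTC, from 138 to 129 and a GC box. In windows at further starts of the same genes, which are not shown, OCLN and TJP3 each held an E-box and TJP1 held 2 p53 half-sites. Over all starts, the E-box was thus in OCLN, TJP1 and TJP3, and the half-site in TJP1 and TJP3. Whether either motif goes with a direction was not tested. RefSeq's table held windows for 24 of the 35 genes, 37 windows in all. The E-box was in 9 of the 37, or 24.3%, against 17.5% of all 35116 windows, and the p53 half-site in 5, or 13.5%, against 5.57%. GC boxes were in 70.3% against 42.6%, the cell cycle element in 8.11% against 13.3%, and the Grainyhead motif in 2.70% against 1.49%. Base composition was not matched in these shares. Several windows belong to the same gene, and a match describes letters in the window and not a bound site.

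Occludin gave the largest difference of the list. OCLN, whose protein was the first membrane component of the tight junction to be described, had a signal of 3843 in the p53 off culture and 619 in the p53 on culture, 6.21-fold lower. All 4 of its probe sets were lower with p53 on. The second of them read 717 and 107, at least 6.38-fold lower with the dim signal set to the floor, and the third read 596 and 212, 2.82-fold lower. The fourth read 195 and 7.34, at least 1.74-fold lower. RefSeq also lists OCLNP1, a transcribed pseudogene of OCLN, and whether a probe set reads it as well was not tested.

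The other MARVEL-domain genes were higher. MARVELD2, the gene of tricellulin, which seals the corners where 3 cells meet, went from 2424 to 6070.1 with p53 on, 2.50-fold higher. Its further probe set read 162 and 536, 3.31-fold higher. MARVELD3, another member of that family, read 904 and 1975, 2.18-fold higher. Its further probe sets had the same direction but smaller size, 470 and 627 on one and 420 and 518 on the other, 1.33-fold and 1.23-fold higher. With the mean over its probe sets the MARVELD3 log2 ratio was 0.62, under 2-fold.

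Among the ZO scaffolds, TJP1, the gene of ZO-1, went from 6209 to 13248 with p53 on, 2.13-fold higher. Its further probe set read 1267 and 1702, 1.34-fold higher, and the mean over both gave a log2 ratio of 0.76, under 2-fold. TJP3, the gene of ZO-3, which is found mainly in epithelia, read 578 and 235, 2.46-fold lower. Its further probe set, at 296 and 73.8, was at least 2.63-fold lower. On the signals as deposited, the opposite directions of TJP1 and TJP3 were therefore seen on every one of their 4 probe sets. The 1.34-fold of the further TJP1 probe set is, however, smaller than the median difference of the spike-ins, 1.89 times. CGN, the gene of cingulin, which links the ZO plaque to actomyosin, read 339 and 293, a log2 ratio of -0.21, and its further probe set was at least 1.69-fold lower. CGNL1, the gene of paracingulin, read 98.1 and 76.0, both under the floor.

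Of the 7 measured claudins, 6 were lower and 1 was higher on the probe set used, with 2 and 1 past 2-fold. The latter are 28.6% lower and 14.3% higher, beside 13.5% and 15.3% over the whole array. The middle claudin stood at -0.56 on the log2 scale, and the middle gene of the array at 0.0035. With the mean over all measured probe sets, 5 claudins were below 0 and 2 above it. Whether claudins differ from other genes was not tested. CLDN4, which encodes a claudin that tightens the barrier to sodium, went from 439 to 1015 with p53 on, 2.31-fold higher, on its single measured probe set. CLDN2, which forms a pore for cations, read 919 and 371, 2.48-fold lower, also on 1 probe set. CLDN15, another pore-forming claudin of the intestine, read 363 and 119, 3.04-fold lower, and its further probe set, at 230 and 34.0, was at least 2.05-fold lower. The p53 on signal of CLDN15 lay just above the floor. CLDN4 was thus the single claudin past 2-fold in the higher direction. Scaled to the spike-ins, CLDN4 was still the single claudin above 0, at 0.29.

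The other claudins stayed within 2-fold. CLDN7, found along the lateral membrane of gut epithelium, came closest to it at 3695 and 1930, 1.91-fold lower. CLDN12 read 552 and 375, 1.47-fold lower. CLDN1, a barrier-forming claudin, read 266 and 195, 1.37-fold lower, and its further probe set was also lower, by a log2 ratio of -0.58 or below. CLDN3, which lies beside CLDN4 on chromosome 7 with no protein-coding gene between them, read 263 and 210, a log2 ratio of -0.33, but its dimmer probe set read 120 and 257, a log2 ratio of 1.10. The direction of CLDN3 thus depended on the probe set. CLDN23 read 61.7 and 53.2, under the floor on both arrays.

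**Figure D2:**
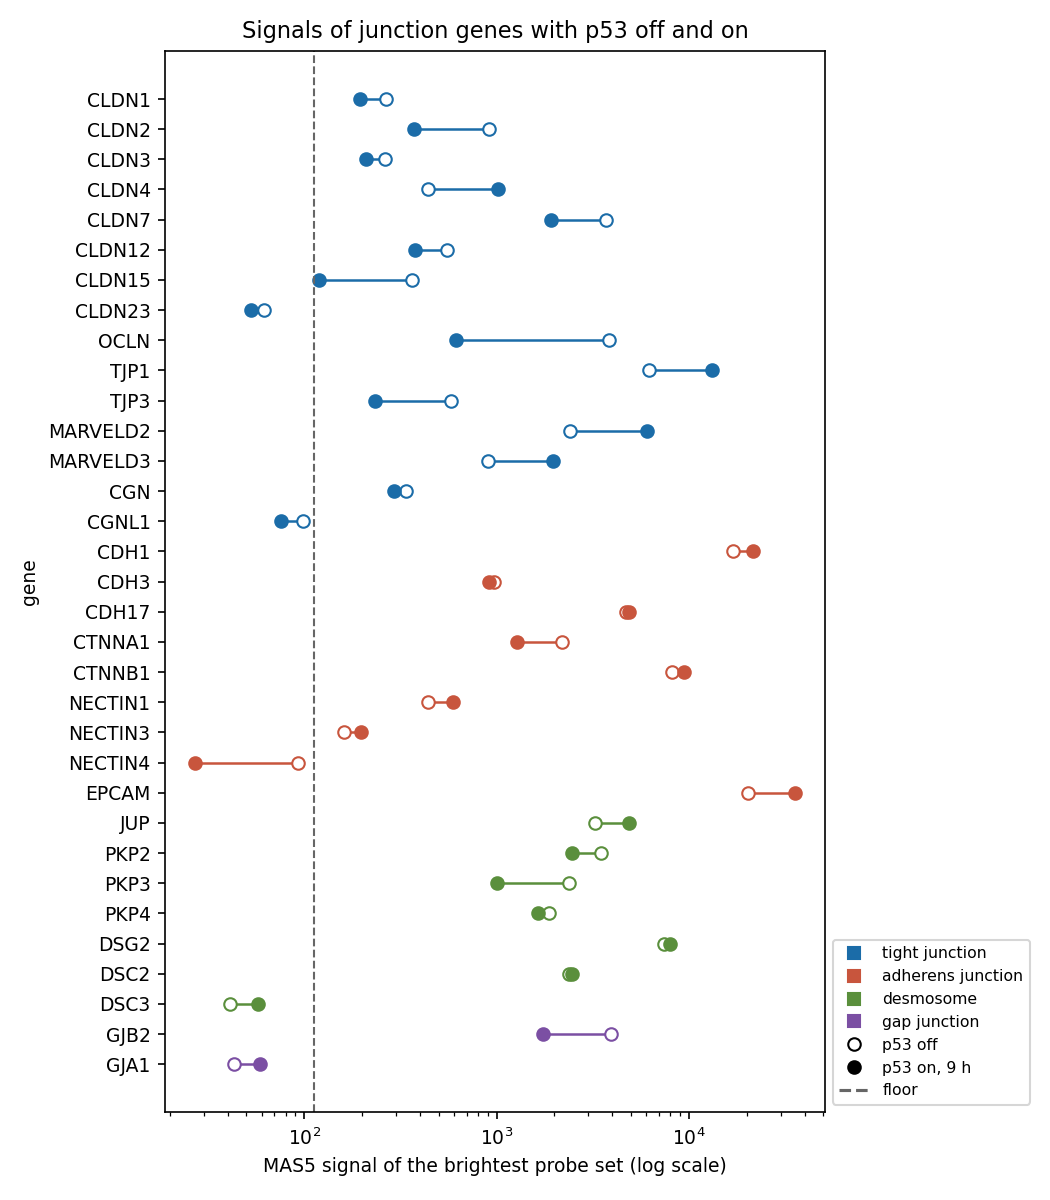
Each row is 1 junction gene with a probe set of its own, with the signal of its brightest probe set on a log axis, open for p53 off and filled for p53 on after 9 h. The dashed line is the floor of 112. The OCLN pair is the widest among the measured genes, from 3843 to 619, and the 5 genes left of the line were not measured.

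Cadherins of the adherens junction differed little. CDH1, the gene of E-cadherin, the main adhesion receptor of epithelia, went from 16970.2 to 21551 with p53 on, 1.27-fold higher. Its other probe set, at 378 and 257, was 1.47-fold lower. CDH3, the gene of P-cadherin and the neighbour of CDH1 with no protein-coding gene between them, read 965 and 918, a log2 ratio of -0.07. CDH17, the gene of the liver-intestine cadherin, read 4690.0 and 4862, a log2 ratio of 0.05. EPCAM, which encodes an adhesion molecule of epithelial cells and was grouped here although it is no cadherin, read 20250.4 and 35534, 1.75-fold higher on its single probe set.

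Catenins link cadherins to actin, and their probe sets did not share a direction. CTNNB1, the gene of beta-catenin, read 8146 and 9389, a log2 ratio of 0.20, with 1.09 and -0.10 on its dimmer probe sets. CTNNA1, the gene of alpha-catenin, read 2180.0 and 1271, 1.71-fold lower. Of its 4 further probe sets, 3 were higher and 1 was lower, with log2 ratios from -0.03 to 0.41. The lower value of CTNNA1 therefore came from 1 of 5 probe sets. Nectins are immunoglobulin-like adhesion molecules that act beside cadherins, and those measured among the members were within 2-fold. NECTIN1 read 440 and 596, 1.36-fold higher, and NECTIN3 read 162 and 196, 1.22-fold higher. NECTIN4 read 93.2 and 27.1, under the floor on both arrays.

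In the desmosome, the gene of plakophilin 3 was the single one past 2-fold, and it was so on its brightest probe set alone. PKP3, whose protein binds desmosomal cadherins and desmoplakin, went from 2394 to 1000.3 with p53 on, 2.39-fold lower. Its other probe set read 454 and 417, 1.09-fold lower, and the mean of both was -0.69 on the log2 scale, under 2-fold. PKP2, the plakophilin of simple epithelia and heart, read 3485 and 2466, 1.41-fold lower, with at least 1.73-fold lower on its other probe set, and the mean of both was -0.65 on the log2 scale, close to that of PKP3. PKP4, a relative also found at adherens junctions, read 1879 and 1639, a log2 ratio of -0.20, and its 4 further probe sets ran from -1.06 to 0.76, the latter a bound with 1 signal under the floor. JUP, the gene of plakoglobin, which is shared by desmosomes and adherens junctions, read 3261 and 4869, 1.49-fold higher.

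The desmosomal cadherins, which form the adhesive part, were near equal on their brightest probe sets. DSG2, the gene of desmoglein 2, read 7452 and 7971, a log2 ratio of 0.10, but its other probe set read 2489.9 and 1525, a log2 ratio of -0.71. DSC2, the gene of desmocollin 2, read 2394 and 2473, a log2 ratio of 0.05, and its further probe sets ran from -1.49 to 0.95. Both of these ends are bounds, since 1 of the signals lay under the floor. DSC3, a desmocollin of stratified epithelia, read 41.0 and 57.7, under the floor. Of the 2 connexin genes, GJB2, which encodes connexin 26, went from 3923 to 1745 with p53 on, 2.25-fold lower on its single probe set. GJA1, which encodes connexin 43, read 43.4 and 59.0, under the floor on both arrays.

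**Figure D3:**
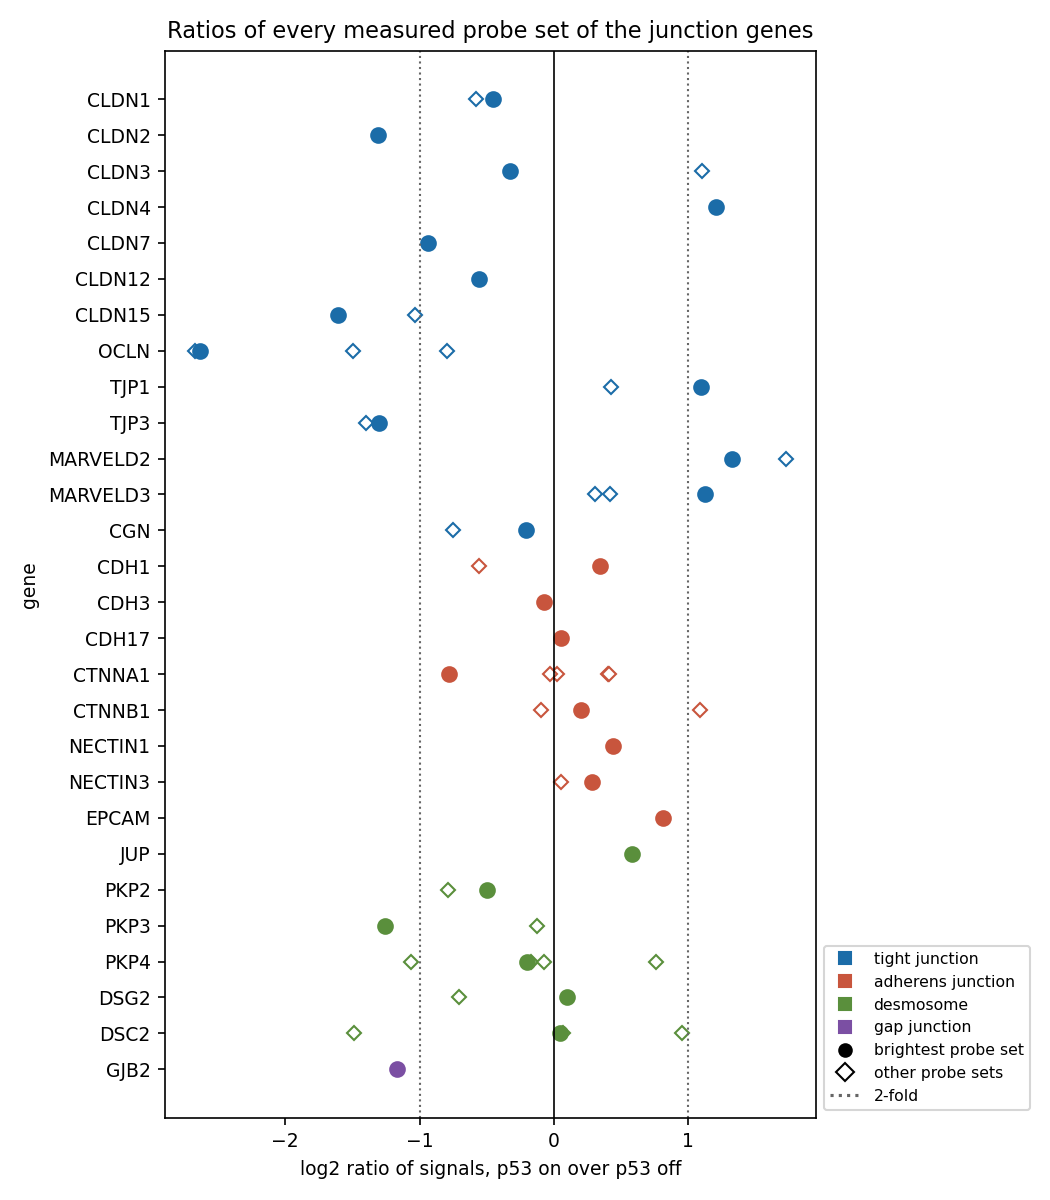
Each row is 1 measured junction gene and each symbol the log2 ratio of p53 on over p53 off for 1 measured probe set, where a dimmer signal counts as equal to the floor. Filled circles are the brightest probe sets, open diamonds the others, and dotted lines 2-fold. All 4 OCLN symbols lie left of 0, and those of CLDN3, CDH1, CTNNA1, CTNNB1, PKP4, DSG2 and DSC2 lie on both sides.

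Probe sets of the same gene were the only repeat measurement. Of the 10 genes past 2-fold, 7 had more than 1 measured probe set, and in all 7 every probe set had the same direction on the signals as deposited. The other 3 were CLDN2, CLDN4 and GJB2. Of the 11 genes within 2-fold that had several, 4 had 1 direction throughout. The genes past 2-fold were picked by 1 of the probe sets compared. Over all 18 genes with several, 11 (61.1%) had a single direction, against 58.6% of 6676 genes over the whole array. The median log2 difference between a further probe set and the one used was 0.78, against 0.56 over all genes.

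The arrays differed in ways that touch these ratios. Control probe sets for the 3′ end of beta-actin were 1.37 times as bright as those for the 5′ end with p53 off and 7.29 times with p53 on, a measure of signal lost away from the 3′ end, and its part in the ratios of the junction genes was not tested. The spike-ins, RNAs added in known amounts at hybridization, were brighter with p53 on, by a median of 1.89 times over 18 probe sets. Scaled to them, the median of all genes moved by -0.80 and none of the 28 genes was 2-fold higher, against 5.86% of all genes. TJP1, MARVELD3, CLDN4 and MARVELD2 then had log2 ratios of 0.17, 0.21, 0.29 and 0.41, still above 0. No measured adherens junction or desmosome gene of the list was above 0 on that scale, and CDH1, CTNNB1, EPCAM and JUP, for example, turned to -0.57, -0.71, -0.11 and -0.34. All directions given here are thus relative to the median gene. In RNA of a whole culture, fewer cells with a transcript and less of it per cell cannot be told apart.

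The label of the cells was set against marker genes. Of 10 colon epithelial markers 7 were measured, among them the simple keratin genes KRT8, KRT18 and KRT19, with signals from 12217 to 57766, and the intestinal factor gene CDX2 at 690 and 461. KRT20, CDX1 and GPA33 were under the floor on both arrays. The epithelial markers as a list summed to 71707 in the p53 off and 121899 in the p53 on culture, and 3 of the 7 (KRT19, ELF3 and LGALS4) were higher by 2-fold or more, against 15.3% of all measured genes. Leukocyte, fibroblast and endothelial markers stayed at or below 248, 231 and 224 on both arrays. Their sums were 564 and 1108, 747 and 1268, and 529 and 927, and 4 of 9, 6 of 10 and 5 of 9 of them were measured, most through 1 array alone. LAPTM5, a leukocyte gene, read 62.7 and 248, at least 2.21-fold higher, and LUM, a fibroblast gene, was at least 2.06-fold higher. Defining genes of these cells, PTPRC, COL1A1, COL3A1 and KDR, were under the floor on both arrays. Of the same lists, CD3D, THY1, VIM and PECAM1 were above it on both, at 159 and 243, 217 and 142, 124 and 190, and 121 and 224. The part of these markers in the ratios of the junction genes was not tested. The mesenchymal cadherin genes CDH2 and CDH11 were under the floor on both arrays, but the mesenchymal gene VIM, as given above, was not.

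Genes of the same junctions outside the 35 were listed by function, also with earlier results of these data known. Of 83 such genes 52 were measured. By 2-fold or more, 8 were higher and 7 lower, or 15.4% and 13.5%, close to the shares over all genes. Their median log2 ratio was 0.18. For 11 of the 52 only 1 array read at or above the floor.

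Among other adherens junction genes, 4 of 20 (20%) were higher and 5 (25%) lower, beside 15.3% and 13.5% of all measured genes. None of the 8 members was past 2-fold, and the difference between these lists was not tested. LIMD1 and AJUBA, which encode LIM proteins of cell contacts that also bind the kinases of Hippo signalling, read 484 and 5124, and 6452 and 25648, 10.6-fold and 3.98-fold higher. SCRIB, a polarity scaffold gene, read 4673 and 16838, 3.60-fold higher. The LIMD1 value is that of its brightest probe set, and its lowest log2 ratio was 0.16. The LIM protein genes ZYX and TRIP6 went the other way, at 2367 and 441 and at 2020.0 and 638, 5.37-fold and 3.17-fold lower. SSX2IP, whose protein binds the nectin adaptor afadin, read 1056 and 261, 4.05-fold lower, and all 6 of its probe sets were lower.

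Of 21 other tight junction genes, 1 was higher and 2 were lower, or 4.76% and 9.52%, beside 15.3% and 13.5% of all measured genes. AMOTL1, of the angiomotin family, read 25.2 and 957, at least 8.52-fold higher, but the mean log2 ratio over its 3 measured probe sets was 1.77, with a lowest of 0.62. Its relative AMOTL2 read 2720 and 1204, 2.26-fold lower. PRKCI, the gene of an atypical protein kinase C of cell polarity, read 1523 and 676, 2.25-fold lower. All 6 measured other desmosome genes had ratios above 0, with a median of 0.77, beside 0.0035 for all measured genes. For 1 of them, DSG3, at 91.1 and 122, the ratio is a bound, at least 1.09-fold higher. Beside 15.3% of all measured genes, 2 of the 6 (33.3%) were at least 2-fold higher. These were KAZN, at 314 and 1375, 4.38-fold higher, and EVPL, a gene of the epidermal plaque protein envoplakin, at 341 and 1356, 3.98-fold higher. Scaled to the spike-ins, only these 2 of the 6 stayed above 0. Of the other gap junction genes, GJA3 read 45.0 and 1447, at least 12.9-fold higher, on its single measured probe set. PANX1 was within 2-fold, and of its 4 measured probe sets 2 were higher and 2 lower. GJB6, GJD3 and PANX2 have only bounds, at least 1.28-fold, 1.53-fold and 1.69-fold higher. PANX1 and PANX2 were grouped here although they encode pannexins and not connexins.

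**Figure D4:**
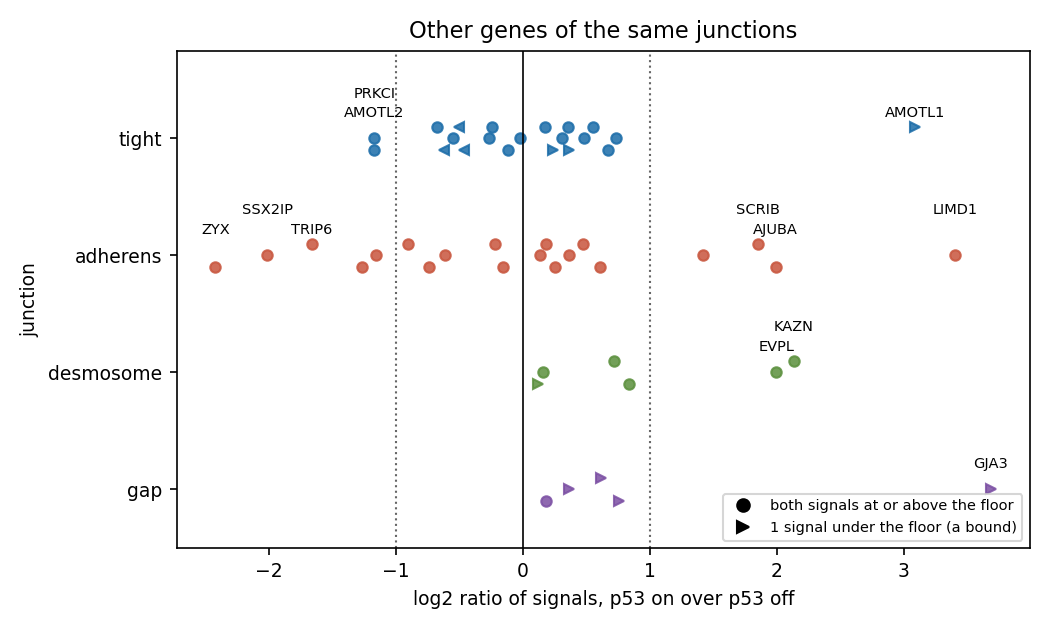
Each symbol is 1 measured gene of the same junctions outside the 35, placed by its log2 ratio of p53 on over p53 off. Genes past 2-fold that the text describes are named, except NECTIN2. Triangles mark genes with 1 signal under the floor, whose ratio is a bound. LIMD1, GJA3 and AMOTL1 lie farthest to the right and ZYX farthest to the left.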

How the data were processed

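The authors deposited a linear signal intensity for each probe set. Per the submitters' processing notes the tool was MAS5, with no version given. Trimmed of 2% at each end, the mean signal was 500.1 on either array, which shows scaling to a common target, and nothing was added. Of 54675 probe sets, 62 were controls, and of the rest 41091 had 1 gene symbol in GEO's platform annotation, 1801 several and 11721 none. Names follow RefSeq for GRCh38.p14, matched on Entrez identifiers for 41037 of them.

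Signals under the floor (112, the 50th percentile) were set to it before log2 ratios of p53 on over p53 off were taken. If 1 signal was under it, the fold is a bound, written "at least". If both were, the gene was not measured. Genes were counted at 2-fold, with no test or p-value, since each condition had 1 array, whose number limits the precision. The counting was checked on simulated data. All members are described. Of each list of other junction genes, the 3 largest and 3 smallest ratios past 2-fold are named, and NECTIN2 is given beside the member nectins. The members and lists were chosen with earlier results of these data known. The alternatives were other floors, scalings, probe set rules and a 1.5-fold threshold, and the closing section gives their effect. The gene of p53 itself is not reported here, so p53 on and off are the conditions as labelled. Tools were Python 3.11.15, statsmodels 0.14.6, scipy 1.17.1, pandas 2.3.3, numpy 2.4.6 and, for figures, matplotlib 3.10.9.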

Additional observations from a re-analysis of the deposited data

Results flagged for a closer look

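Control probe sets enter no gene comparison, and 3 of their measures differed between the arrays. The ratio of 3′ to 5′ signal for beta-actin was 7.29 with p53 on, against 1.37 with p53 off. For GAPDH it was 1.77, against 0.97. Hybridization spike-ins were brighter with p53 on, by a median of 1.89 times and from 1.47 to 2.59 over 18 probe sets.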

How the results depend on the processing

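The 10 genes past 2-fold kept their direction under a floor at the 40th or the 60th percentile, a pseudocount of 1 in place of the floor, quantile normalization, loess, centring of all genes on their median, scaling to the spike-ins, the mean of all measured probe sets, and without _x_at and _s_at probe sets (where PKP3 has none left). Scaled to the spike-ins, 0 of 30 measured members were higher by 2-fold and 14 were lower, with a median of -0.93. That is 0% higher and 46.7% lower, against 5.86% and 41.4% of all genes. Of the other junction genes 17 of 51 (33.3%) were lower, with a median of -0.72. With the mean of all probe sets, 2 members were at least 2-fold higher, CLDN4 and MARVELD2, or 7.14% against 12.6% of all genes. For the other junction genes, no floor gave 19 higher and 11 lower over 71 genes, or 26.8% and 15.5% against 24.0% and 18.5% of all genes. The 1.5-fold threshold gave 15 and 12 of them, or 28.8% and 23.1%, against 25.9% of all measured genes in each direction. The other counts stayed within 1.5 times, and the other medians within the 95% binomial interval over genes, which was -0.56 to 0.28 for the members. That interval leaves out any spread between cultures. No paired analysis was possible because each condition has 1 array. Genes whose signal lies near the floor, such as CLDN15 with p53 on, are limited most by background.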
